A study of Arabidopsis thaliana with 48 samples.

Results

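The places where 18S ribosomal RNA (rRNA) ends at its 3′ side were compared between nonpolysome and polysome RNA of wild-type (WT) Arabidopsis. The libraries were chosen by their titles: nonpolysome replicates 1 to 4 and polysome replicates 1 to 4 of the Col accession, 8 of the 48 libraries of the series. All came from 18-day-old seedlings of the unmutated Col background, whose extracts were separated on a sucrose gradient and assayed by 18S-ENDseq. In this assay the RNA is ligated into circles, and reverse transcription from a primer in 18S rRNA runs over the joined ends, so that both ends of a molecule are read together. Nonpolysome RNA was pooled from the light fractions of the gradient and polysome RNA from the heavy ones, and the 80S fraction between them was in neither pool. The authors counted reads whose 5′ end was that of mature 18S rRNA, so precursors that still carried 5′ sequence were not measured. The 4 WT total libraries, which were not fractionated, were used for comparison. So were 8 nonpolysome and polysome libraries each of the hot3-2 mutant and the dcl2 dcl4 double mutant, also from 18-day-old seedlings. The replicates bear numbers in the labels but no culture, gradient or day. The p-values therefore measure the spread between these libraries.

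In plants, as in yeast and animals, 18S rRNA is cut out of a long precursor. Its 3′ end is freed from the internal transcribed spacer 1 (ITS1) in steps, first by cleavage within the spacer and finally at the D site, which is the 3′ end of the mature rRNA. The small subunit precursor is exported to the cytoplasm before the last cut, and in yeast that cut is made by the endonuclease Nob1 in a late particle whose maturation needs eIF5B. Subunits that have entered translation lie in polysomes, whereas free subunits and their precursors lie in the light part of a gradient. Intermediates of rRNA maturation can also carry nucleotides added without a template, mostly adenosines, and in yeast such tails promote degradation by the exosome.

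Each library was a grid of 330 rows, with 30 end positions from -5 to +24 around the D site and 11 tail lengths from 0 to 10 nt. The D site (position 1891 of the authors' 45S rDNA reference) is position 0 here. The sequence is shown because each end is named by its last base and because a tail base equal to the next reference base cannot be told apart from a longer end. It holds the last 6 bases of 18S rRNA and the first 24 bases of ITS1, in the DNA sense, with the A1 region (+8 to +13) and the A2 site (+21 and +22) in capitals:
18S 3′ end and ITS1 start: tcattgtcgatacCTGTCCaaaacagAAcg
It was read from RefSeq's TAIR10.1 assembly, where the 18S gene AT2G01010 (chr2:3706-5513, plus strand, 1808 bp) and the 18S gene AT3G41768 (chr3:14197677-14199484, plus strand) are followed by the same bases. The window lies at chr2:5508-5537 and chr3:14199479-14199508. Reads were not assigned to either locus. In ITS1, +13 is followed by a run of A from +14 to +17, and A2 is itself a pair of A followed by c.

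The nonpolysome libraries held 1938991 to 3427512 reads and the polysome libraries 2528573 to 6468532. Untailed D-site reads made up 90.3% to 91.7% of nonpolysome reads, 93.4% to 94.4% of polysome reads and 93.1% to 94.0% of reads in the 4 WT total libraries, which were not fractionated. These D-site reads were the denominator of every percentage below unless another is named, so a value is relative to mature 18S rRNA of the same library and not an amount of RNA. Of the 330 rows, 21 to 45 had no read in a nonpolysome library and 60 to 106 had none in a polysome library. Within both groups, every pair of libraries differed by more than counting error, with a chi-square per degree of freedom of 13.5 to 74.8.

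Everything that was not an untailed D-site end summed to 10.0%, 9.05%, 10.8% and 9.96% of D-site reads in nonpolysome replicates 1 to 4, and to 5.99%, 6.15%, 6.35% and 7.05% in polysome replicates 1 to 4. The groups did not overlap (exact two-sided permutation p = 0.0286, the smallest that 4 against 4 libraries allow). The difference was unevenly divided along the rRNA. Shortened ends (-5 to -1) summed to 6.61% ± 0.300 in nonpolysome RNA and 4.80% ± 0.389 in polysome RNA (SD, n = 4 each). Untailed ends from +3 to +24 summed to 1.54% ± 0.444 in nonpolysome RNA and 0.328% ± 0.0825 in polysome RNA, and the tailed reads of the same stretch to 0.492% ± 0.197 in nonpolysome RNA and 0.0774% ± 0.0175 in polysome RNA.

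The rows were tested one by one with edgeR's quasi-likelihood test on the counts, with Benjamini-Hochberg adjustment over the rows tested. Of the 329 rows other than the untailed D site, 136 reached the filter of 10 counts in 4 or more libraries and were tested, namely all 29 untailed ends and 107 of 300 tailed rows. At an adjusted p under 0.05, 111 rows (81.6%) were higher in nonpolysome RNA and 0 rows were lower. At an unadjusted p under 0.05 there were 112 higher and 0 lower, and DESeq2 with the same D-site scaling called 110 higher and 0 lower. The called rows were 25 of the 29 untailed ends (86.2%) and 86 of the 107 tailed rows (80.4%). A tailed row could pass the filter on its 4 nonpolysome libraries alone, which favours rows high in nonpolysome RNA. Of the 111 called rows, 20 fell under the filter in at least 1 of the fits that left out 1 library. In 105 of the 136 rows (77.2%) all 4 nonpolysome libraries lay above all 4 polysome libraries, and in every called row each nonpolysome library lay above the polysome library of the same number. The median log2 fold change, nonpolysome over polysome, was 2.10 over the tested rows. Because 111 of 136 rows moved one way, these directions hold relative to the D site. With edgeR's TMM scaling the median shifted by -1.99 and 40 rows were called higher and 36 lower, and with DESeq2's own size factors it shifted by -2.06, with 29 called higher and 39 lower. With both of these scalings the untailed ends at -3 to -1, +1 to +8, +18, +19, +23 and +24 had log2 fold changes below 0.

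**Figure D1:**
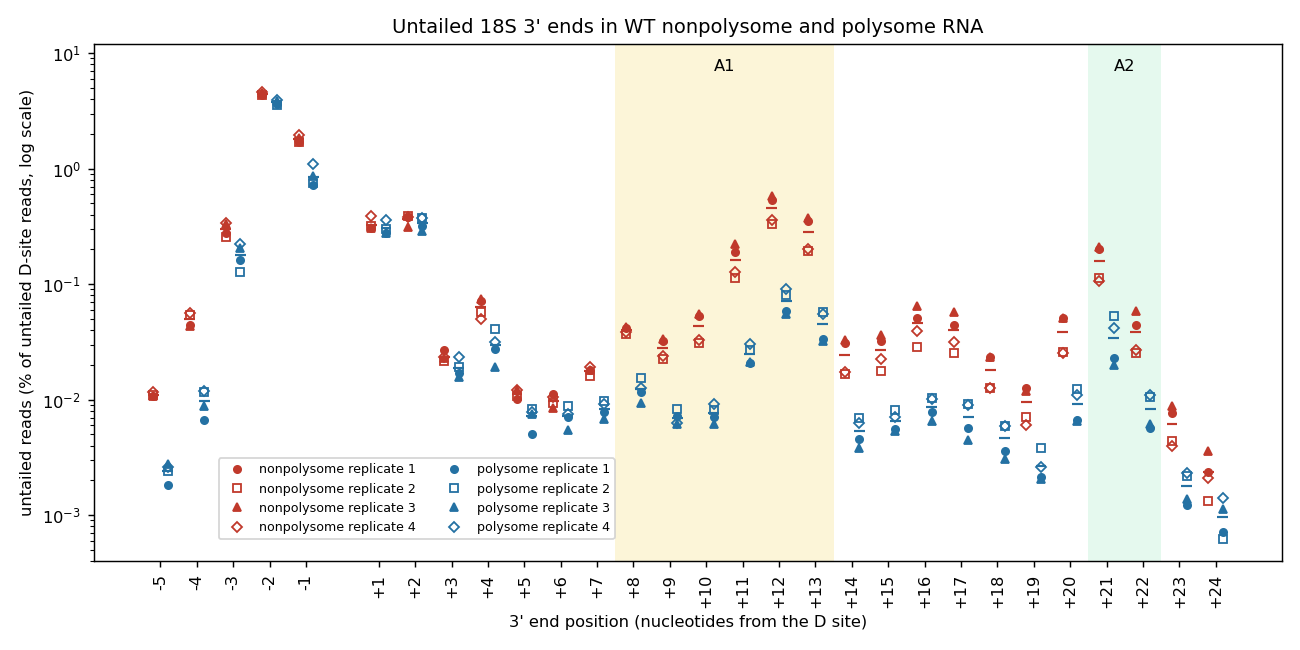
Untailed reads ending at each position from -5 to +24 (x axis, nucleotides from the D site), as percent of untailed D-site reads on a log axis, in the 4 nonpolysome (red) and 4 polysome (blue) WT libraries. Dashes are group means, filled symbols replicates 1 and 3, open symbols replicates 2 and 4. The red and blue points lie together at +1 and +2 and apart at A1 and A2 (shaded).

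Shortened ends were the most frequent ends after the D site, and both groups were ordered alike, with -2 first and -1 second. At -2, nonpolysome replicates 1 to 4 had 4.31%, 4.36%, 4.51% and 4.61%, against 3.63%, 3.57%, 3.88% and 3.95% in polysome replicates 1 to 4. The groups did not overlap but lay close, with a log2 fold change of 0.24 ± 0.06 (SE, adjusted p = 0.00186). At -1, nonpolysome libraries had 1.70%, 1.71%, 1.83% and 1.97% and polysome libraries 0.716%, 0.747%, 0.857% and 1.10%. This end, 1 nt short of the mature end, was 2.11-fold higher in nonpolysome RNA by the ratio of means (log2 1.08 ± 0.13, adjusted p = 1.02e-05), and the lowest nonpolysome library was well above the highest polysome library.

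At -3 the values were 0.278%, 0.255%, 0.331% and 0.335% in nonpolysome RNA and 0.163%, 0.126%, 0.205% and 0.223% in polysome RNA (log2 0.74 ± 0.19, adjusted p = 0.00215). The groups did not overlap, although polysome replicate 4 came near to nonpolysome replicate 2. Further inward the ends became rare and the gap between fractions became wide. At -4, nonpolysome libraries had 0.0444%, 0.0541%, 0.0437% and 0.0558% and polysome libraries 0.00665%, 0.0116%, 0.00879% and 0.0119% (log2 2.35 ± 0.27, adjusted p = 1.02e-05). At -5, nonpolysome libraries had 0.0108%, 0.0109%, 0.0107% and 0.0117% and polysome libraries 0.00182%, 0.00241%, 0.00278% and 0.00259% (log2 2.21 ± 0.28, adjusted p = 1.77e-05). The nonpolysome values at -5 were nearly the same in all 4 libraries, and the log2 fold changes at -4 and -5 lay within the range of those from +9 to +22. Counting error was larger here: the half-width of the Wilson 95% interval at -5 was 10.6% to 24.3% of the value. Such intervals cover counting error only, since PCR products were counted without molecular identifiers.

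At -5 the WT total libraries lay outside the range of both fractions, with 0.000762%, 0.00115%, 0.00103% and 0.00102%, under every polysome library. At -4 they had 0.00578%, 0.00492%, 0.00680% and 0.00506%, where only total replicate 3 reached the lowest polysome library.

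The ends nearest to the D site on the ITS1 side were not called between the fractions, and their groups overlapped. At +1, nonpolysome libraries had 0.306%, 0.317%, 0.304% and 0.386% and polysome libraries 0.280%, 0.297%, 0.275% and 0.361%. At +2, nonpolysome libraries had 0.382%, 0.387%, 0.312% and 0.383% and polysome libraries 0.319%, 0.374%, 0.291% and 0.373%. At both ends each nonpolysome library was above the polysome library of its own number (4 of 4), by less than the range within either fraction. The log2 fold changes were 0.11 ± 0.15 and 0.11 ± 0.14 (SE), each with an adjusted p of 0.469. Over both ends together, nonpolysome libraries had 0.688%, 0.704%, 0.616% and 0.768% and polysome libraries 0.599%, 0.672%, 0.566% and 0.734% (log2 difference 0.11, exact permutation p = 0.314). In each fraction these ends were far more frequent than those at +3.

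From +3 to +7 the ends were scarce and the differences were smaller than at A1 and A2. At +4, the highest of this stretch, nonpolysome libraries had 0.0709%, 0.0570%, 0.0742% and 0.0499% and polysome libraries 0.0275%, 0.0406%, 0.0193% and 0.0313% (log2 1.09 ± 0.26, adjusted p = 0.00150). The groups did not overlap there, nor at +7 (log2 1.09 ± 0.26, adjusted p = 0.00131). At +5 the groups did not overlap either, and the log2 fold change was 0.65 ± 0.28 with an adjusted p of 0.0416. The call at +5 was lost in 6 of the 8 fits that left out 1 library. At +3 and +6 the groups overlapped, with log2 fold changes of 0.33 ± 0.24 and 0.45 ± 0.27 and adjusted p-values of 0.223 and 0.140. Summed from +3 to +7, nonpolysome libraries had 0.137%, 0.114%, 0.136% and 0.115% and polysome libraries 0.0645%, 0.0866%, 0.0546% and 0.0793%, without overlap (exact permutation p = 0.0286, adjusted over 19 classes 0.0362).

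The A1 region, a cluster of intermediate ends within ITS1, held the 3 largest fold changes of all untailed ends, at +11 to +13, and the gap between the fractions was wider in its D-distal than in its D-proximal part. At +8, nonpolysome libraries had 0.0414%, 0.0367%, 0.0424% and 0.0385% and polysome libraries 0.0117%, 0.0155%, 0.00938% and 0.0127% (log2 1.69 ± 0.25, adjusted p = 3.04e-05). At +9, nonpolysome libraries had 0.0322%, 0.0223%, 0.0333% and 0.0239% and polysome libraries 0.00718%, 0.00832%, 0.00614% and 0.00624% (log2 2.00 ± 0.27, adjusted p = 1.98e-05). At both ends the groups were well apart, and the nonpolysome libraries were alike at +8. At +10, nonpolysome libraries had 0.0525%, 0.0308%, 0.0554% and 0.0331% and polysome libraries 0.00711%, 0.00808%, 0.00614% and 0.00923% (log2 2.49 ± 0.29, adjusted p = 1.02e-05). At +11, nonpolysome libraries had 0.188%, 0.113%, 0.222% and 0.127% and polysome libraries 0.0205%, 0.0268%, 0.0210% and 0.0304% (log2 2.72 ± 0.26, adjusted p = 3.6e-06). At every untailed end from +10 to +22, nonpolysome replicates 1 and 3 stood above nonpolysome replicates 2 and 4, while polysome replicates 1 and 3 stood below polysome replicates 2 and 4.

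The end at +12, a C, was the most frequent ITS1 end beyond +2 in both fractions. Nonpolysome libraries had 0.531%, 0.334%, 0.579% and 0.362% there and polysome libraries 0.0590%, 0.0809%, 0.0547% and 0.0899%, a 6.35-fold difference of means (log2 2.67 ± 0.23, adjusted p = 1.77e-06). At +13, nonpolysome libraries had 0.350%, 0.195%, 0.377% and 0.200% and polysome libraries 0.0334%, 0.0578%, 0.0325% and 0.0556% (log2 2.64 ± 0.28, adjusted p = 9.5e-06). The lowest nonpolysome library was above the highest polysome library at each A1 end. In nonpolysome replicates 1 and 3 the end at +12 was more frequent than those at +1 and +2, in replicate 2 more frequent than +1 only, and in replicate 4 less frequent than both. In every polysome library it was less frequent than both.

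**Figure D2:**
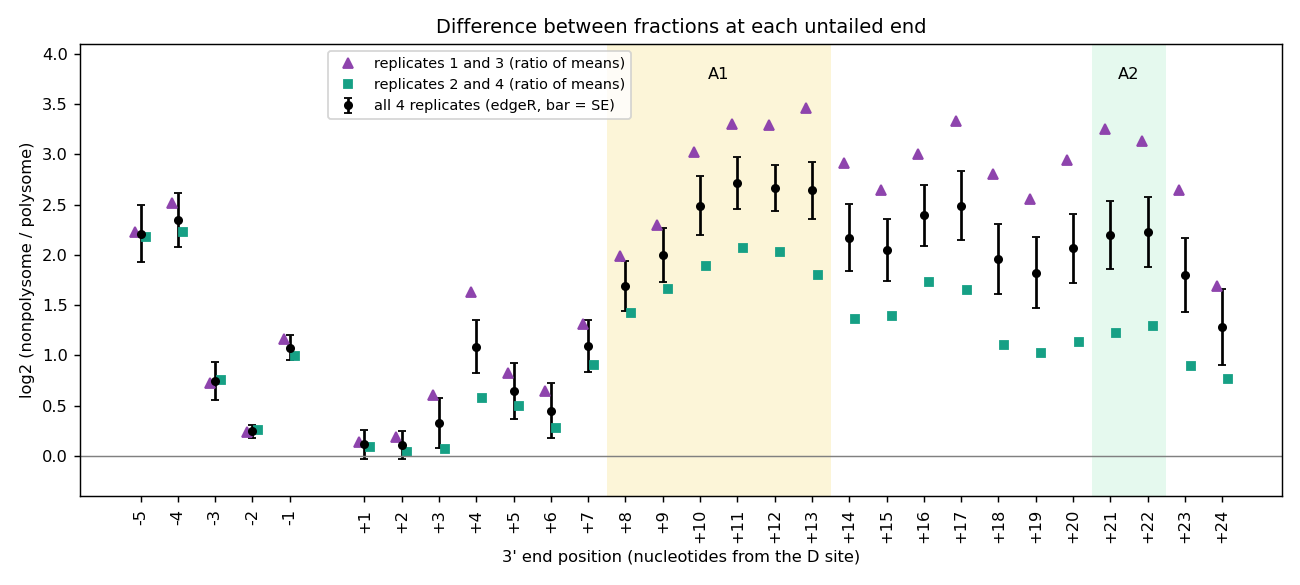
Log2 of the nonpolysome over the polysome level for each untailed end (x axis, nucleotides from the D site). Black points are edgeR estimates over 4 replicates with SE, triangles the ratio of means in replicates 1 and 3 and squares that in replicates 2 and 4. The black points are near 0 at +1 and +2 and reach 2.72 at +11, and triangles lie above squares at every end except -3 and -2.

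Between A1 and A2, from +14 to +20, all 7 untailed ends were called higher in nonpolysome RNA, beside 86.2% of all untailed ends. While 77.2% of all tested rows were higher without overlap, none of the groups overlapped at these 7 ends. Their log2 fold changes ran from 1.82 at +19 to 2.49 at +17. Their sum was 0.246%, 0.134%, 0.277% and 0.155% in nonpolysome libraries and 0.0361%, 0.0566%, 0.0319% and 0.0520% in polysome libraries (log2 difference 2.17, exact permutation p = 0.0286). Within the stretch, +16, +17 and +20 had the highest means in nonpolysome RNA, at 0.0457% ± 0.0153, 0.0398% ± 0.0142 and 0.0384% ± 0.0148 (SD, n = 4).

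A2 is a cleavage site within ITS1, and according to the study its end can also come from processing of a longer precursor. At +21, nonpolysome libraries had 0.202%, 0.113%, 0.208% and 0.107% and polysome libraries 0.0231%, 0.0526%, 0.0200% and 0.0416% (log2 2.20 ± 0.34, adjusted p = 4.02e-05). At +22, nonpolysome libraries had 0.0446%, 0.0255%, 0.0584% and 0.0269% and polysome libraries 0.00564%, 0.0104%, 0.00610% and 0.0110% (log2 2.23 ± 0.35, adjusted p = 4.94e-05). The groups were apart at both, and again nonpolysome replicates 1 and 3 were the highest and polysome replicates 1 and 3 the lowest. Past A2 the untailed ends were scarcer. At +23 the log2 fold change was 1.80 ± 0.37 (adjusted p = 0.000424) and at +24 it was 1.29 ± 0.38 (adjusted p = 0.00590), where nonpolysome replicate 2 lay below polysome replicate 4.

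The replicate numbers divided the libraries in a way that the labels do not name. The fold between fractions was larger in replicates 1 and 3 than in replicates 2 and 4 in 125 of the 136 tested rows, including 27 of the 29 untailed ends. These rows come from the same libraries, joined by number, and are not independent of each other. Untailed ends from +10 to +13 averaged 1.18% in nonpolysome RNA and 0.117% in polysome RNA of replicates 1 and 3. In replicates 2 and 4 they averaged 0.697% in nonpolysome RNA and 0.179% in polysome RNA. The log2 difference was therefore 3.33 in replicates 1 and 3 and 1.96 in replicates 2 and 4. At A2 the contrast was wider, with log2 differences of 3.23 in replicates 1 and 3 and 1.24 in replicates 2 and 4. Untailed shortened ends did not show it: for -2 and -1 together the values were 0.45 in replicates 1 and 3 and 0.44 in replicates 2 and 4. Tailed ends from -5 to -3 did, with 1.48 in replicates 1 and 3 and 0.0870 in replicates 2 and 4. With replicates 1 and 3 alone, 75 of the 89 rows that passed the filter were called higher (84.3%) and 0 lower. With replicates 2 and 4 alone, 53 of 92 were called higher (57.6%) and 2 lower (2.17%), namely -5 with a tail of 7 nt (log2 -1.91, adjusted p = 0.00925) and -4 with a tail of 6 nt (log2 -1.05, adjusted p = 0.0236).

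Measures taken within ITS1 do not depend on the D-site denominator, and of the 4 measures 1 was higher (25%) and 2 were lower (50%) in nonpolysome RNA without overlap. Ends at +1 and +2 were 27.4%, 38.6%, 23.6% and 39.3% of untailed reads from +1 to +22 in nonpolysome libraries and 69.1%, 62.5%, 70% and 65.4% in polysome libraries. The ratio of D-proximal (+8 and +9) to D-distal (+10 to +13) A1 ends was 0.0656, 0.0878, 0.0614 and 0.0864 in nonpolysome libraries and 0.157, 0.137, 0.136 and 0.102 in polysome libraries. The mean position of untailed ends from +3 to +22 was 13.2, 12.8, 13.3 and 12.8 nt past the D site in nonpolysome libraries and 11.6, 12.3, 11.7 and 12.2 nt in polysome libraries. These 3 did not overlap between the groups (exact permutation p = 0.0286 each, adjusted over the 4 measures 0.0381), and untailed polysome ends in ITS1 lay on average nearer to the D site. The ratio of A1 to A2 ends did not separate them. It was 4.84, 5.28, 4.91 and 5.87 in nonpolysome libraries and 4.83, 3.13, 4.97 and 3.89 in polysome libraries (exact permutation p = 0.114), and it was alike in the fractions of replicates 1 and 3 and higher in nonpolysome RNA of replicates 2 and 4.

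**Figure D3:**
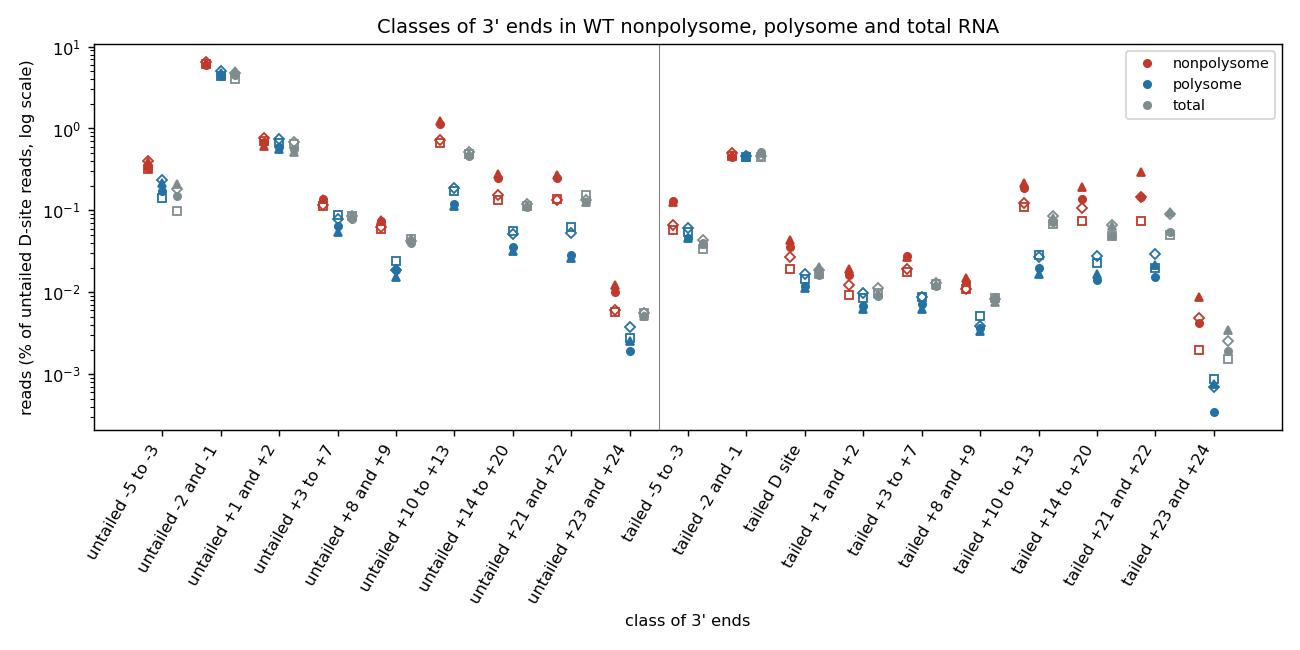
Reads in 9 classes of untailed and 10 classes of tailed ends (x axis), as percent of untailed D-site reads on a log axis, in WT nonpolysome (red), polysome (blue) and total (grey) libraries. Each symbol is 1 library, filled for replicates 1 and 3 and open for replicates 2 and 4. In 15 of the 19 classes the 4 nonpolysome points lie above the 4 polysome points.

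In 15 of the 19 classes of ends (78.9%) the nonpolysome libraries lay wholly above the polysome libraries, each with an exact permutation p of 0.0286 and an adjusted value of 0.0362. The classes that overlapped were untailed +1 and +2, tailed -5 to -3, tailed -2 and -1, and tailed +1 and +2. WT total libraries lay between the fractions in the classes of A1 ends. For untailed +10 to +13 nonpolysome libraries had 1.12%, 0.672%, 1.23% and 0.723%, polysome libraries 0.120%, 0.174%, 0.114% and 0.185% and total libraries 0.465%, 0.485%, 0.492% and 0.515%. All total values were below all nonpolysome values and above all polysome values there. For untailed -2 and -1, total libraries had 4.55%, 4.06%, 5.04% and 4.82% beside 6.01%, 6.07%, 6.35% and 6.57% in nonpolysome RNA and 4.34%, 4.32%, 4.74% and 5.05% in polysome RNA, so that total and polysome RNA overlapped.

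Tails are nucleotides that did not match the reference past an end, and their bases are not in the counts used here. The share of tailed reads differed widely between ends, and at some ends also between fractions. At +22, 76.4%, 73.9%, 83.3% and 84.1% of nonpolysome reads with this end had a tail, against 72.5%, 64.9%, 77.4% and 72.3% of polysome reads. At +17 the shares were 69.3%, 68.1%, 70.8% and 71.5% in nonpolysome libraries and 63.9%, 65.2%, 72.9% and 68.9% in polysome libraries. These ends, which close the AA of A2 and the run of A before it, were tailed in most reads in both fractions, and the groups overlapped. The end at +21, 1 base before, was tailed in 1.57% ± 0.282 of nonpolysome and 1.72% ± 0.407 of polysome reads, and that at +13, whose next bases are A, in 0.710% ± 0.119 of nonpolysome and 0.505% ± 0.165 of polysome reads (SD, n = 4 each). At +12, the most frequent A1 end, the shares were 14.3% ± 0.644 of nonpolysome and 12.6% ± 1.28 of polysome reads.

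At -5, -4 and -1 the tailed share was lower in nonpolysome RNA. At -5 it was 42.9%, 31.9%, 38.4% and 33.6% in nonpolysome libraries and 73.6%, 73.9%, 61.2% and 78.0% in polysome libraries, and at -4 it was 37.8%, 20.8%, 41.6% and 24.7% in nonpolysome libraries and 67.2%, 57.2%, 65.6% and 63.5% in polysome libraries. At -1 it was 15.7%, 16.3%, 13.6% and 13.8% in nonpolysome libraries and 33.0%, 29.8%, 23.8% and 19.7% in polysome libraries. The groups did not overlap at these ends, whereas they overlapped at -3 and -2. At the D site, +1, +5, +6 and +7 they did not overlap either, and there the nonpolysome share was the higher one. Shares at single ends were not tested. Tailed reads at shortened ends can include mature-length or longer reads whose last bases did not match the reference.

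For +21 and +22 together the tailed share was 37.4%, 34.7%, 52.6% and 51.9% in nonpolysome libraries and 34.6%, 24.04%, 45.04% and 35.8% in polysome libraries. The groups overlapped (exact permutation p = 0.171), while each nonpolysome library was above the polysome library of its own number. In this pooled share replicates 3 and 4 were above replicates 1 and 2 in each fraction, but in polysome RNA replicate 4 was below replicate 1 at +21 and at +22 taken singly.

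Of the 20 tail measures (the tailed share and the mean tail length in 10 classes), 4 were higher without overlap in nonpolysome RNA (20%), 1 was lower without overlap (5%), and 0 passed adjustment over the 20 (adjusted p = 0.114 for these 5). From +3 to +7 the tailed share was 17%, 13.3%, 16.5% and 14.4% in nonpolysome libraries and 10.1%, 9.21%, 10.2% and 9.83% in polysome libraries. At the D site it was 0.0353%, 0.0193%, 0.0440% and 0.0266% in nonpolysome libraries and 0.0118%, 0.0145%, 0.0114% and 0.0167% in polysome libraries. From +14 to +20 it was 35.7%, 35.7%, 40.8% and 41.1% in nonpolysome libraries and 28.1%, 28.9%, 34.6% and 35.0% in polysome libraries. For +23 and +24 together the groups were apart as well. At every single end of both classes, however, the groups overlapped, and a pooled share also depends on the mix of ends. At +14 the mean share was 7.07% in nonpolysome and 7.53% in polysome RNA. At -2 and -1 the order was turned: 6.99%, 7.06%, 7.04% and 7.12% of nonpolysome reads and 9.96%, 9.43%, 8.76% and 8.30% of polysome reads had a tail.

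**Figure D4:**
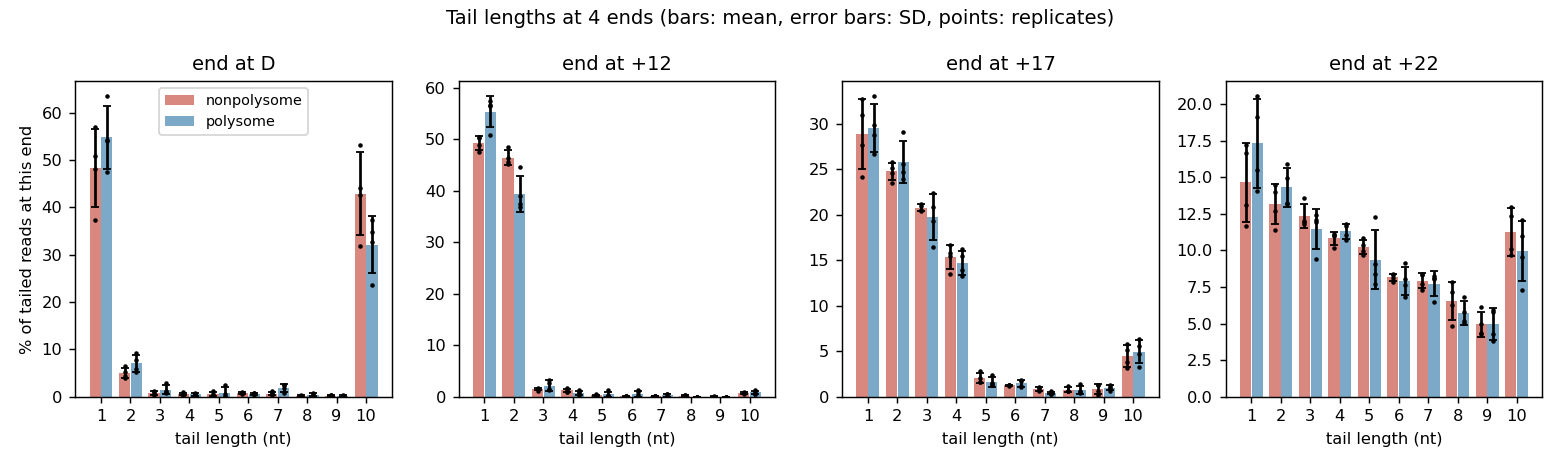
Tail lengths at the D site, +12, +17 and +22 (panels), as percent of the tailed reads with that end, in WT nonpolysome (red) and polysome (blue) RNA. Bars are means of 4 libraries, error bars SD and points single libraries. The shape differs from end to end, and at +12 the share of 1 nt tails is lower and that of 2 nt tails higher in nonpolysome RNA.

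Each end had its own spectrum of tail lengths, and the fractions overlapped in some lengths and not in others. Shares of single tail lengths were not tested, and those named here were picked with their values known. At +22 the lengths fell off slowly up to 9 nt: tails of 1 nt made up 14.6% ± 2.69 of tailed reads in nonpolysome and 17.3% ± 3.02 in polysome RNA, and tails of 9 nt 4.95% ± 0.873 in nonpolysome and 4.97% ± 1.08 in polysome RNA (SD, n = 4). The 10 nt class there was larger than that of 9 nt, at 11.3% ± 1.63 in nonpolysome and 9.97% ± 2.06 in polysome RNA. At +17 the shares stayed high up to 4 nt, with 15.3% ± 1.35 in nonpolysome and 14.7% ± 1.35 in polysome RNA, and at 5 nt they were 2.05% ± 0.575 in nonpolysome and 1.64% ± 0.521 in polysome RNA. Tails of 1 and 2 nt made up nearly all tails at +12. A tail of 1 nt was 49.3% ± 1.33 in nonpolysome and 55.4% ± 3.05 in polysome RNA there, and one of 2 nt 46.4% ± 1.46 in nonpolysome and 39.5% ± 3.52 in polysome RNA, and neither overlapped. At +11 tails were mostly of 1 to 4 nt, the 4 nt tail without overlap at 26.2% ± 1.59 in nonpolysome and 22.6% ± 0.938 in polysome RNA. The mean tail length in the A1 class +10 to +13 was 2.42, 2.34, 2.58 and 2.47 nt in nonpolysome libraries and 2.40, 2.37, 2.55 and 2.45 nt in polysome libraries (exact permutation p = 0.886). The highest values of both groups came from replicate 3.

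Relative to the D site, tailed ends from +10 to +22 were higher in nonpolysome RNA, as untailed ones were. Called higher were all 18 tested tailed rows from +10 to +13, all 26 from +14 to +20 and all 11 at +21 and +22. Over all tested tailed rows 80.4% were called higher, and over all tested rows 81.6%. The median log2 fold changes of the tailed rows in these 3 classes were 2.75, 2.62 and 3.02. The untailed ends of the same classes had medians of 2.66, 2.07 and 2.21, and all tested rows 2.10. The difference between tailed and untailed ends was not tested. Tailed rows could pass the count filter through nonpolysome RNA alone, so these counts and medians do not compare tailed with untailed ends. The 1 nt tail at +14, for example, had 17, 23, 12 and 11 counts in nonpolysome libraries and 9, 5, 4 and 6 in polysome libraries. Of the 6 called rows with the largest fold changes that had a mean of at least 100 counts and groups that did not overlap, 5 were tails at +22. The tail of 8 nt at +22 had 0.00907%, 0.00347%, 0.0209% and 0.0112% in nonpolysome libraries and 0.000770%, 0.000976%, 0.00143% and 0.00166% in polysome libraries (log2 3.21 ± 0.50, adjusted p = 4.31e-05). Nonpolysome replicate 3 was the highest and replicate 2 the lowest, and the groups did not overlap. The remaining one was the 2 nt tail at +12, with 0.0439%, 0.0241%, 0.0479% and 0.0264% in nonpolysome libraries and 0.00397%, 0.00518%, 0.00252% and 0.00465% in polysome libraries (log2 3.12 ± 0.34, adjusted p = 9.5e-06). A tail of 1 nt at +22 had 0.0248%, 0.0120%, 0.0383% and 0.0166% in nonpolysome libraries and 0.00283%, 0.00396%, 0.00294% and 0.00443% in polysome libraries (log2 2.69 ± 0.38), and here nonpolysome replicates 1 and 3 were above replicates 2 and 4.

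**Figure D5:**
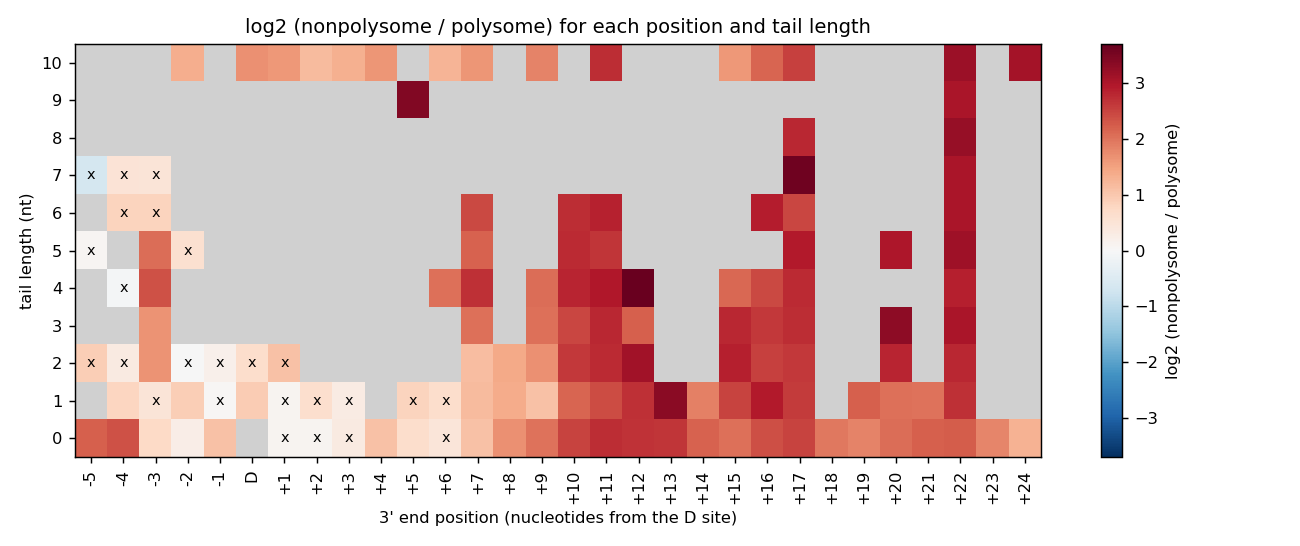
Log2 of the nonpolysome over the polysome level for each end position (x axis, nucleotides from the D site) and tail length (y axis, 0 is untailed). Grey rows did not pass the count filter (the untailed D site is the denominator), and crosses mark tested rows that were not called. Tested rows from +10 to +22 are all red and called, and the uncalled rows lie from -5 to +6.

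Tails on shortened ends and near the D site behaved otherwise, and the 25 rows that were tested and not called all lay from -5 to +6. The most frequent tailed rows among them, on -1 and -2, were those where end and tail together had the length of the mature rRNA. Such reads cannot be told apart here from mature-length reads whose last bases did not match the reference. Other uncalled rows, such as the 1 nt tail on -3 and the 2 nt tail on -4, fell short of that length. Both were more frequent than the 4 nt tail on -4 and the 5 nt tail on -5. A tail of 1 nt on -1 had 0.313%, 0.330%, 0.285% and 0.312% in nonpolysome libraries and 0.351%, 0.314%, 0.266% and 0.266% in polysome libraries (log2 0.05 ± 0.14, adjusted p = 0.753). A tail of 2 nt on -2 had 0.125%, 0.122%, 0.180% and 0.179% in nonpolysome libraries and 0.122%, 0.129%, 0.180% and 0.182% in polysome libraries (log2 -0.02 ± 0.21, adjusted p = 0.931). The groups overlapped in both rows, and at -2 both fractions of replicates 3 and 4 were higher than those of replicates 1 and 2. The 4 nt tail on -4 and the 5 nt tail on -5, which also gave the mature length, had log2 fold changes of -0.07 ± 0.29 and 0.08 ± 0.33 (adjusted p = 0.812 and 0.830). The 3 nt tail on -3 gave the mature length too but was called higher, with 0.00858%, 0.00305%, 0.00811% and 0.00277% in nonpolysome libraries and 0.00143%, 0.00209%, 0.00151% and 0.00214% in polysome libraries (log2 1.65 ± 0.41, adjusted p = 0.00190). Here the groups were apart, and nonpolysome replicates 1 and 3 were the highest. At -1 the tails that gave the mature length were 99.1% ± 0.304 of tailed reads in nonpolysome RNA and 99.3% ± 0.178 in polysome RNA (SD, n = 4 each). A tail of 1 nt on -2, which leaves the rRNA 1 nt short, was called higher, with 0.00750%, 0.00605%, 0.00851% and 0.00804% in nonpolysome libraries and 0.00344%, 0.00382%, 0.00400% and 0.00462% in polysome libraries (log2 0.92 ± 0.28, adjusted p = 0.00651), without overlap.

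At the D site itself tails were rare and mostly of 1 nt or in the 10 nt class. The 1 nt tail had 0.0170%, 0.0110%, 0.0164% and 0.0135% in nonpolysome libraries and 0.00639%, 0.00919%, 0.00538% and 0.00905% in polysome libraries (log2 0.95 ± 0.29, adjusted p = 0.00789). The 10 nt class had 0.0156%, 0.00614%, 0.0234% and 0.0113% in nonpolysome libraries and 0.00387%, 0.00342%, 0.00425% and 0.00580% in polysome libraries (log2 1.70 ± 0.39, adjusted p = 0.000984). The groups did not overlap in either row, though nonpolysome replicate 2 lay near the polysome libraries. Whether the 10 nt class also holds longer tails is not given in the sources used here. At +1 the 1 nt tail overlapped between the groups (log2 0.10 ± 0.29, adjusted p = 0.758), as the untailed end did.

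Long tails on -3 and -4 set nonpolysome replicates 1 and 3 apart from all other libraries. The 5 nt tail on -3 had 0.0328%, 0.00776%, 0.0324% and 0.00844% in nonpolysome libraries and 0.00393%, 0.00569%, 0.00269% and 0.00728% in polysome libraries (log2 2.05 ± 0.50, adjusted p = 0.00164). The 6 nt tail on -4 had 0.0109%, 0.00181%, 0.0112% and 0.00228% in nonpolysome libraries and 0.00297%, 0.00385%, 0.00332% and 0.00462% in polysome libraries (log2 0.82 ± 0.52, adjusted p = 0.152). In this row nonpolysome replicates 2 and 4 lay below every polysome library, and all 8 libraries were above the WT total libraries, which had 0.000792%, 0.000495%, 0.000835% and 0.000997%. The 6 nt tail on -3 showed the same order, with 0.0155%, 0.00391%, 0.0132% and 0.00400% in nonpolysome libraries and 0.00531%, 0.00618%, 0.00416% and 0.00517% in polysome libraries (adjusted p = 0.0969). In these rows end and tail together reached past the D site. Reads of that length whose last bases did not match the reference cannot be told apart here from tailed shortened ends.

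The fraction difference of WT was set against that of the mutant seedlings, fractionated and assayed alike, by an interaction term in edgeR. HOT3 encodes the translation initiation factor eIF5B1, and DCL2 and DCL4 encode Dicer-like proteins, which cut double-stranded RNA into small RNAs. Against hot3-2, 3 of 255 tested rows differed (2 higher in hot3-2, 0.784%, and 1 lower, 0.392%). These were the untailed ends at +5 and +6 and the 4 nt tail at +7. At an unadjusted p under 0.05 there were 44 rows, of which 14 were lower in hot3-2. The median log2 difference over the tested rows, hot3-2 minus WT, was 0.45, and 0.21 with all counted reads as library size. With all counted reads as library size 1 row was higher and 2 were lower, and 2 of these 3 were among the rows named. At +5 the log2 fold change, nonpolysome over polysome, was 2.59 ± 0.21 in hot3-2 and 0.65 ± 0.28 in WT, a difference of 1.95 ± 0.31 (SE, adjusted p = 0.000724). At +12 it was 3.09 ± 0.18 in hot3-2 and 2.67 ± 0.23 in WT, a difference of 0.42 ± 0.29 that did not pass the test (adjusted p = 0.439). Against dcl2 dcl4, 0 of 173 tested rows differed by edgeR in either direction (0% each), with 1 row at an unadjusted p under 0.05. At +12 its log2 fold change was 2.76 ± 0.14.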

How the data were processed

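The authors deposited whole-number read counts per library, one for each 3′ end position and tail length, with no normalization. According to the study's methods, RNA was circularised, reverse-transcribed from a primer in 18S rRNA, amplified and sequenced in pairs. Reads were mapped to the authors' 45S rDNA reference with STAR, up to many places each with 1 reported, and their 3′ ends were counted by a script of the authors. The submitters' processing notes name STAR 2.7.10b and cutadapt 4.2. Ends at the D site were the study's own denominator.

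Here counts were divided by the untailed D-site count of the library. Rows that reached 10 counts in 4 or more libraries were tested with edgeR 4.0.16 (glmQLFit and glmQLFTest, R 4.3.3), with that D-site count taken for library size and only the compared groups in the fit, and called at an adjusted p under 0.05. The step was tested on simulated data. The SE of a fold change is its size over the root of the F statistic. Classes, tail measures and measures within ITS1 were compared by exact two-sided permutation over 70 arrangements, on the log2 scale except means of position and length. Alternatives were TMM, DESeq2 1.42.0, other denominators and filters, replicate and pair blocks, and leaving out each library. Fits of replicates 1 and 3 or 2 and 4 are by edgeR. WT, hot3-2 and dcl2 dcl4 libraries were used, and those of the combined mutant and the mutant totals (20 libraries) were not used here. WT fraction libraries held 1938991 to 6468532 reads.

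Named rows were all untailed ends, tails of 1 to 3 nt at the D site, +1, +2, A1 and A2, and, of called rows with a mean of at least 100 counts and no overlap, the 6 largest and 6 smallest fold changes. Any other row in the text was picked with its values known. The members, classes and lists were chosen with earlier results of these data known.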

Additional observations from a re-analysis of the deposited data

Results flagged for a closer look

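In groups of 4 values, 1 library stood far from the other 3 in 5 of the 202 groups examined, and chance flags about 1 in 20. The untailed end at +1 was highest in nonpolysome replicate 4, at 0.386%, where the other nonpolysome libraries had 0.304% to 0.317%, and polysome replicate 4 was also the highest of its group. The untailed end at +2 was lowest in nonpolysome replicate 3, at 0.312%, against 0.382% to 0.387% in the others. The 1 nt tail at +8 was lowest in nonpolysome replicate 4, at 0.00233%, and the 1 nt tail at +9 was highest in nonpolysome replicate 1, at 0.00235%. The mean tail length at +23 and +24 was lowest in polysome replicate 1, at 4.29 nt, against 6.66 to 7 nt in the others.

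In 3 rows the fraction difference was not the same in hot3-2 as in WT by the edgeR interaction term. The difference, hot3-2 minus WT, was 1.95 ± 0.31 on the log2 scale at untailed +5 (SE, adjusted p = 0.000724), 1.40 ± 0.32 at untailed +6 (adjusted p = 0.0284) and -1.86 ± 0.44 at +7 with a tail of 4 nt (adjusted p = 0.0286). The untailed ends at +4 and +7 did not pass this test (adjusted p = 0.201 and 0.219).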

How the results depend on the processing

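The number of rows called, 111, changed with the scaling, the rows tested and the libraries used. It was 76 with TMM and 68 with DESeq2's own size factors, of which 52 and 43 were among the 111. It was 196 with no count filter, 49 with at least 100 counts in 4 libraries, 25 with untailed rows only and 51 with tail lengths summed, where fewer or more rows were tested. With replicates 2 and 4 only it was 55. Leaving out each library in turn gave 87 to 110 calls. Of the 111 rows 86 were called in all 8 of these fits, 20 fell under the count filter in at least 1 and 6 lost their call in at least 1, of which +5 was the only untailed end. Without nonpolysome replicate 3 the row -5 with a tail of 7 nt was called lower.

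With the TMM scaling the log2 fold change was -1.22 at -3, -1.69 at -2, -1.03 at -2 with a tail of 1 nt, -0.84 at -1, -0.99 at D with a tail of 1 nt, -1.33 at D with a tail of 2 nt, -1.78 at +1, -1.80 at +1 with a tail of 1 nt, -1.77 at +2, -1.32 at +2 with a tail of 1 nt, -1.59 at +3, -0.84 at +4, -1.25 at +5, -1.45 at +6, -0.82 at +7, -0.22 at +8, -0.57 at +8 with a tail of 1 nt, -0.54 at +8 with a tail of 2 nt, -0.87 at +9 with a tail of 1 nt, -0.23 at +9 with a tail of 2 nt, -0.014 at +18, -0.16 at +19, -0.18 at +23 and -0.73 at +24. With DESeq2's own size factors it was -1.26 at -3, -1.73 at -2, -1.08 at -2 with a tail of 1 nt, -0.88 at -1, -1.06 at D with a tail of 1 nt, -1.41 at D with a tail of 2 nt, -1.82 at +1, -1.85 at +1 with a tail of 1 nt, -1.07 at +1 with a tail of 2 nt, -1.82 at +2, -1.40 at +2 with a tail of 1 nt, -1.64 at +3, -0.91 at +4, -1.31 at +5, -1.50 at +6, -0.88 at +7, -0.29 at +8, -0.63 at +8 with a tail of 1 nt, -0.61 at +8 with a tail of 2 nt, -0.052 at +9, -0.94 at +9 with a tail of 1 nt, -0.29 at +9 with a tail of 2 nt, -0.020 at +15, -0.082 at +18, -0.23 at +19, -0.024 at +21 with a tail of 1 nt, -0.24 at +23 and -0.78 at +24. With untailed reads from +1 to +22 as the denominator, the log2 difference of classes was -0.26 for untailed -5 to -3, -0.76 for untailed -2 and -1, -1.08 for untailed +1 and +2, -0.36 for untailed +3 to +7, -1.15 for tailed -2 and -1, -0.041 for tailed D site and -0.36 for tailed +1 and +2.

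Deviations from the group mean correlated only weakly by number, by 0.27, 0.20, 0.17 and 0.000234 between the nonpolysome and polysome libraries of numbers 1 to 4 over 136 rows. Nonpolysome replicate 4 correlated best with polysome replicate 3 (0.38). Within numbers 1 and 2, and within numbers 3 and 4, the correlations between fractions were all above 0. Between numbers 1 or 2 of one fraction and 3 or 4 of the other they were mostly negative, from -0.44 to 0.037. With the replicate block 109 rows were called, 2 rows differed from hot3-2 (1 of the 3 named) and 0 from dcl2 dcl4, and nonpolysome libraries were above polysome libraries of the same number in all 4 pairs in 18 classes. The number of tail measures without overlap, 5, was 8 without the 10 nt class, 12 with replicates 1 and 3 only and 10 with replicates 2 and 4 only, and 5 to 9 when 1 library was left out. That of classes, 15, was 15 to 17 and that of measures within ITS1, 3, was 3 to 4 when 1 library was left out. The cause of these changes was not tested.

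Depth limits the rare ends: 193 of 329 rows were not tested, and at -5 the half-width of the Wilson interval reached 24.3% of a value. Percentages are relative to mature 18S rRNA, tails that match ITS1 cannot be seen, and precursors with an immature 5′ end were not counted.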
